A study of Mus musculus with 18 samples.

Results

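Broad H3K4me3 regions that differed between tumour and normal thymocytes while no other listed histone mark differed at the same bases are described here. Trimethylation of histone H3 at lysine 4 (H3K4me3) is deposited by SET1 and MLL methyltransferases around the start sites of active genes. Most such domains are short, and unusually broad ones are known to sit over genes that define a cell type and over genes transcribed at a steady, high rate. H3K27me3 is the repressive mark of Polycomb repressive complex 2, H3K9ac is an acetylation found with active promoters and enhancers, and Notch1 is a transmembrane receptor whose cleaved intracellular form enters the nucleus and acts on target genes with the DNA-binding factor RBPJ.

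The members are the autosomal regions of the deposited H3K4me3 comparison that were 1500 bp or wider and shared no base with a region of the H3K27me3 or H3K9ac comparison. There were 490 such regions among 21127 autosomal and 21402 total H3K4me3 regions. The comparison set tumours driven by over-expressed Notch1-IC, the intracellular part of Notch1, labelled T-ALL for T cell acute lymphoblastic leukaemia (2 H3K4me3 libraries), against CD4+ CD8+ double-positive (DP) cells of normal mouse thymus (2 H3K4me3 libraries). H3K27me3 and H3K9ac were compared in the same way with 2 libraries per cell type, and Notch1 was mapped in 1 T-ALL library only, beside 1 sonicated T-ALL input. How Notch1-IC was expressed, and whether replicates came from separate animals, is not given in the sources used here. All cells were fixed in 1% formaldehyde for 10 min.

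The authors gave every histone region a display colour, either green or red. No source used here tells which of these colours stands for more signal in T-ALL, so results are given by colour. Each width is the extent of a listed difference between T-ALL and DP cells. The breadth of the H3K4me3 domain in either cell type is not given. The lists give positions and carry neither the size of a change nor any value per library. No test between T-ALL and DP cells could therefore be made, the depth behind each region is unknown, and the 95% Clopper-Pearson intervals below cover counting error over regions only. Regions are not replicates, and the differences between groups of regions were not tested. Width, colour and neighbouring regions come from the comparisons that chose the members and are descriptions, whereas the Notch1 peaks were not used in the choice. Positions are 1-based on the mouse build mm9. No gene annotation of that build was at hand, so the regions are named by position and no gene or sequence is given for them.

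The rule kept most broad regions. Of 717 autosomal H3K4me3 regions of 1500 bp or more, 76 shared bases with an H3K27me3 region and 158 with an H3K9ac region, 7 of them with both. The H3K9ac list holds regions on 11 of the 19 autosomes, and 268 members lay on these. On the other 8 autosomes, which held 222 members, no region could be removed for sharing bases with H3K9ac. Members made up 2.32% of autosomal H3K4me3 regions and 6.21% of the bases these cover, 968 kb in all.

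Broad regions without another changed mark were mostly green. Of the 490 members 418 were green and 72 were red, a green share of 85.3% (81.9 to 88.3). Green made up 47.6% of all autosomal H3K4me3 regions and red 52.4%. Among the 17444 narrower regions without another changed mark the green share was 49.0% (48.3 to 49.8). Broad regions with another mark stood on either side of the members: 89.9% (84.1 to 94.1) of the 158 sharing bases with H3K9ac were green, and 27.6% (18.0 to 39.1) of the 76 sharing bases with H3K27me3. A high green share was therefore not particular to broad regions without another changed mark. The members held 4.16% of all green autosomal regions, and 0.650% of all red ones.

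The green share climbed with width above 250 bp. Among regions without another changed mark it was 23.5% at 250 to 475 bp, 44.9% at 500 to 725 bp, 69.6% at 1000 to 1225 bp and 74.4% at 1.25 to 1.475 kb. Within the members it was 79.3% from 1500 to 1725 bp, 85.2% from 1.75 to 1.975 kb and 91.3% from 2000 to 2475 bp. Of the 33 members from 2500 to 2975 bp 1 was red, and all 22 members of 3000 bp or more were green. The 1500 bp limit fell on this slope rather than at a break: 23 of 30 regions exactly 1500 bp wide were green, against 29 of 38 that were 1.475 kb wide.

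**Figure D1:**
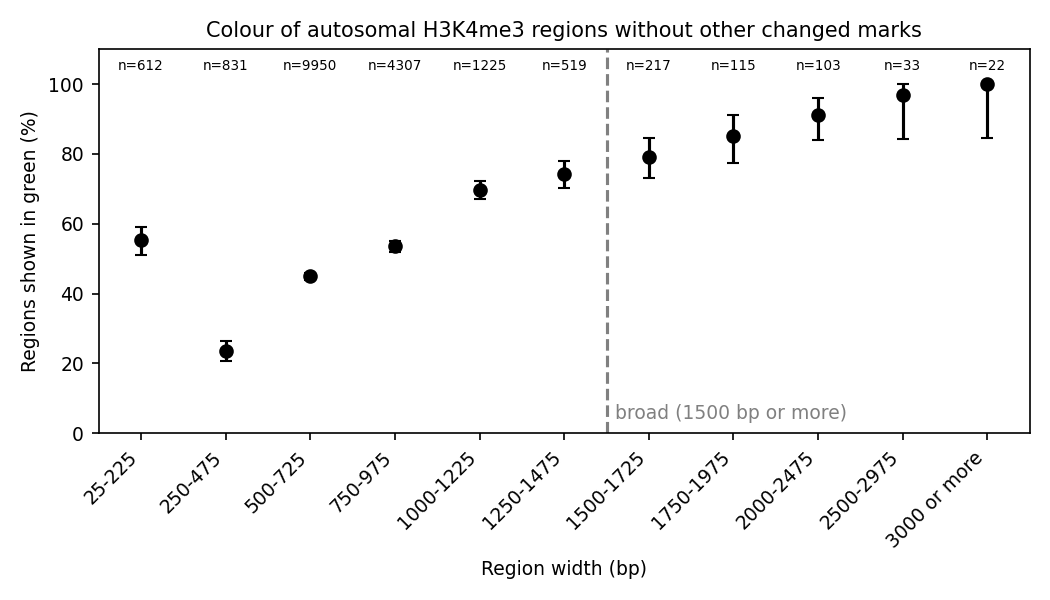
Share of autosomal H3K4me3 regions shown in green (y axis, %) by region width (x axis, bp), for regions sharing no base with H3K27me3 or H3K9ac regions; points are shares, bars are 95% Clopper-Pearson intervals, n is the number of regions, and the dashed line marks 1500 bp. From 250 bp upwards the share climbs at every step, to 79.3% at 1500 to 1725 bp and 100% of 22 regions at 3000 bp or more.

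Green members were also wider than red members, as green regions were in the whole list. The median width of members was 1850 bp (interquartile range 1625 to 2175) in green and 1650 bp (1550 to 1775) in red. Over all autosomal regions the medians were 700 bp in green and 625 bp in red. Among narrower regions without another mark they were 675 and 600 bp. The widest red member measured 2625 bp, and 44 green members exceeded it. The widest green member measured 6200 bp.

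Green predominated on every autosome. The green share of members exceeded that of all listed H3K4me3 regions on all 19 chromosomes. It was lowest on chromosome 3, with 16 green and 7 red members (69.6%), and highest on chromosome 16, where all 13 members were green. Chromosome 10 held the most red members, 9 of 32. Chromosome 5 held the most members, 41. Members were 3.93% of the H3K4me3 regions of chromosome 12, the highest share, and 1.51% of those of chromosome 17, the lowest. Chromosome 17 is in the H3K9ac list and chromosome 12 is not, so the H3K9ac condition could remove none on chromosome 12. Before removal of regions sharing another mark, broad regions were 4.40% of the list on chromosome 12, against 3.02% on chromosome 17. On the 11 chromosomes of the H3K9ac list the green share of members was 87.7% (83.1 to 91.4), and on the other 8 autosomes it was 82.4% (76.8 to 87.2).

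**Figure D2:**
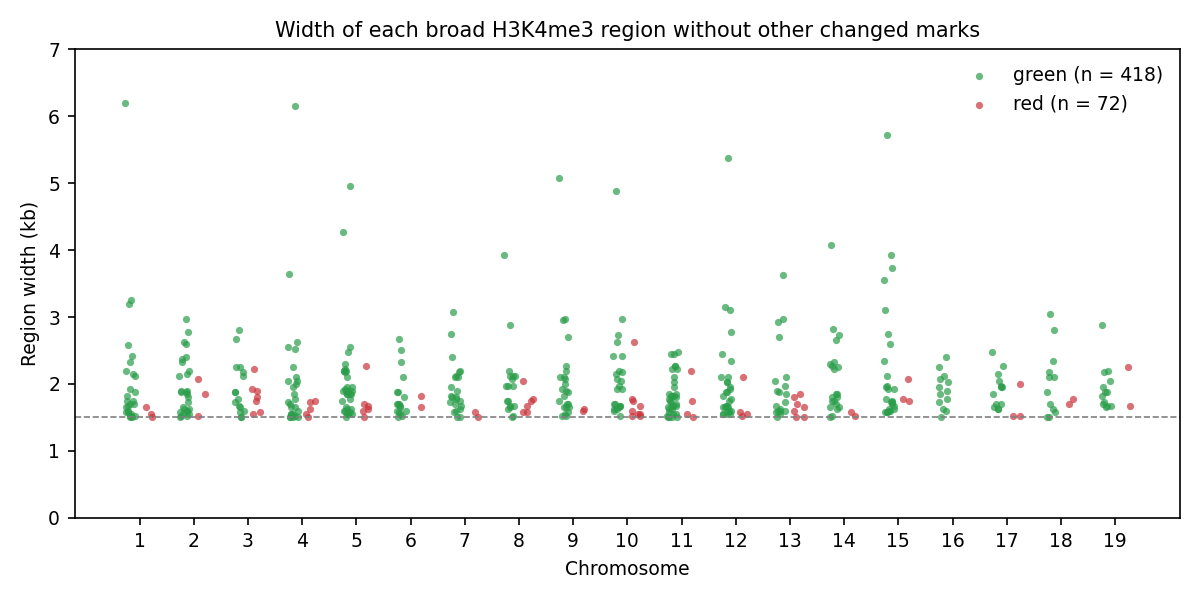
Width of each of the 490 broad H3K4me3 regions (y axis, kb) by chromosome (x axis), one point per region, green points for regions shown in green and red points for those shown in red; the dashed line marks 1.5 kb. All points above 2625 bp are green, and chromosome 16 has no red point.

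Most of the widest green regions had smaller green regions beside them. The broadest, 6200 bp at chr1:185860901-185867100, directly adjoined a second green region of 2575 bp, so that listed green regions ran over 8775 bp without a gap. Before it lay 1 red H3K4me3 region of 575 bp and 2 red H3K9ac regions of 500 bp, one of them against the adjoining green region's outer edge and one within it. The next, 6150 bp at chr4:140161101-140167250, had a single green neighbour 4.35 kb away. A region of 5725 bp at chr15:6528726-6534450 had 2 green neighbours, the nearer at 0.275 kb.

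Other wide green regions stood in longer green arrays, and one stood alone. The region of 5375 bp at chr12:110162301-110167675 had 5 green and 0 red neighbours within 5 kb. The region of 4950 bp at chr5:66255826-66260775 also had 5 green and 0 red. By contrast the region of 5075 bp at chr9:112114901-112119975 had no H3K4me3 region within 5 kb, the nearest lying 17.0 kb away, and its nearest H3K27me3 region and Notch1 peak were 522 and 565 kb away.

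The remaining 4 of the 10 widest green members measured 3925 to 4875 bp. They lay at chr10:96082201-96087075, at chr5:104183726-104188000, at chr14:32386251-32390325 and at chr8:108765051-108768975. Over the 10, 8 had a green H3K4me3 neighbour within 5 kb, 3 had a red one, and none held a Notch1 peak. Of all green autosomal regions 43.6% had a green and 32.7% a red neighbour, and only 1.03% held a peak. The nearest H3K27me3 region was 89.6 kb or more from each of the 10. The median of this distance over all green autosomal regions was 93.9 kb.

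The widest red regions were shorter and stood in more varied surroundings. The 10 widest measured 2000 to 2625 bp. Within 5 kb of them 5 had a green H3K4me3 region, 1 had a red one and 5 had neither. Of all red autosomal regions 24.8% had a green and 17.6% a red neighbour. The broadest red member, at chr10:79611501-79614125, had no listed region within 5 kb, but chromosome 10 is not in the H3K9ac list. The next, 2275 bp at chr5:137041551-137043825, had green regions of 75 and 1225 bp on its opposite sides and a red one of 275 bp.

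A further 4 of these red regions had green H3K4me3 close by, and 2 of the 4 touched it. The red region of 2100 bp at chr12:77470376-77472475 had 2 green regions on one side, of 675 and 1150 bp, and adjoined a green region of 1325 bp on the other without a gap. The red region of 2000 bp at chr17:88839401-88841400 adjoined a green region of 725 bp, with another of 900 bp behind it. On chromosome 11 the red region of 2200 bp from 59918176 to 59920375 was followed by green regions of 525 and 600 bp. On chromosome 19 the red region of 2250 bp from 4396676 to 4398925 had a red H3K9ac region 475 bp away, with a green H3K4me3 region of 775 bp beyond it.

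Others of the widest red regions lay near H3K27me3 or Notch1 instead. On chromosome 8 the red region of 2050 bp from 81552576 to 81554625 lay between green H3K27me3 regions of 1075 and 950 bp, 1900 and 1000 bp from its edges. On chromosome 2 the red region of 2075 bp from 152222051 to 152224125 had green H3K27me3 regions of 525 and 675 bp before it and a red one of 225 bp after it, the nearest at 75 bp. On chromosome 3 the red region of 2225 bp from 136332601 to 136334825 had a green H3K27me3 region 2.08 kb away. On chromosome 15 the red region of 2075 bp from 88692326 to 88694400 had a Notch1 peak of 900 bp that began 325 bp past its end.

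**Figure D3:**
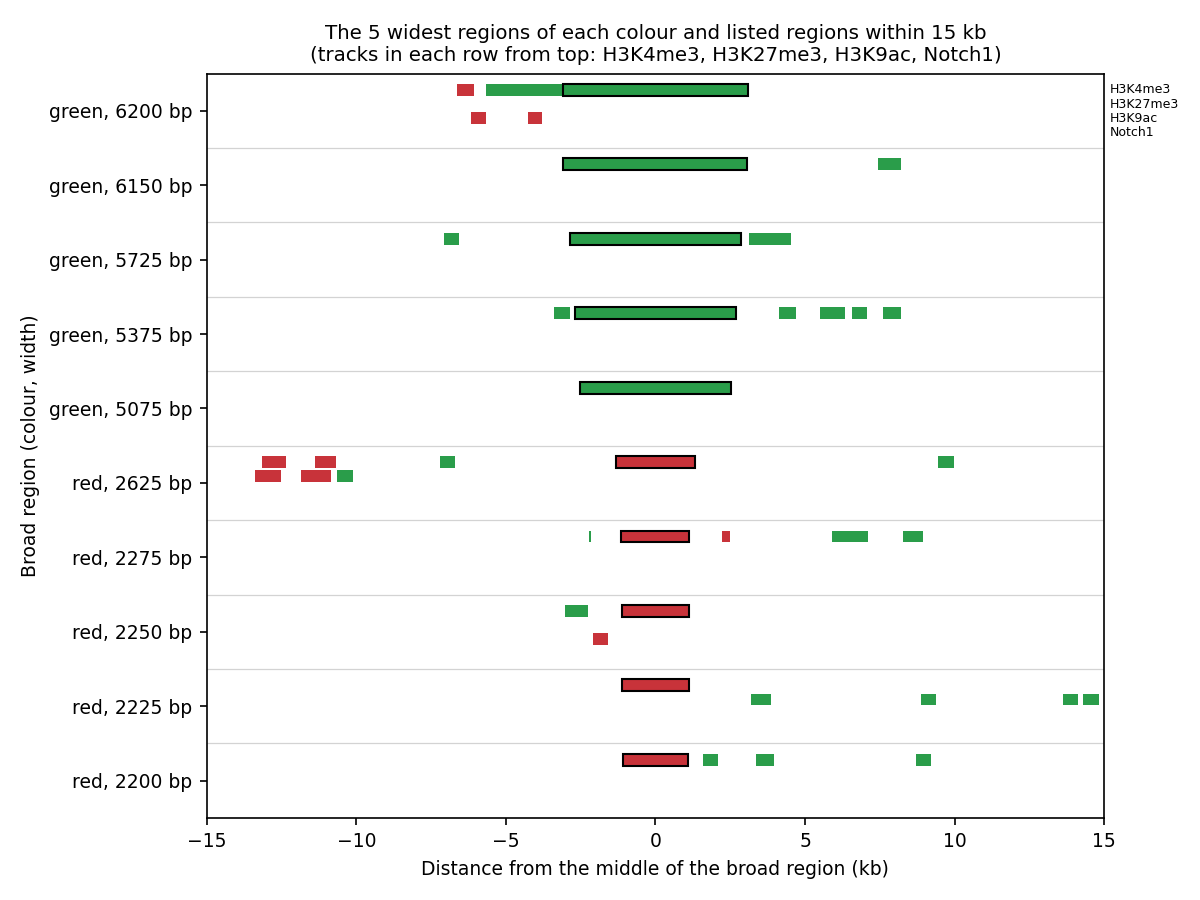
Listed regions within 15 kb of the middle of the 5 widest green (upper rows) and 5 widest red (lower rows) broad H3K4me3 regions, by distance from that middle (x axis, kb); each row stacks H3K4me3, H3K27me3, H3K9ac and Notch1 from top to bottom, bar colours are the deposited colours, and black outlines mark the broad region itself. The green rows hold mostly further green H3K4me3, while 4 of the 5 red rows hold green H3K4me3 within 15 kb, and none of the 10 holds a Notch1 peak.

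Across all members, a green neighbour was more frequent than a red one for both colours, though 40 of 72 red members had no green one. Another listed H3K4me3 region lay within 5 kb of 65.1% of members (60.7 to 69.3), against 49.4% of all autosomal H3K4me3 regions. These pooled shares mix the colours, and members were more often green. By colour the gap was smaller: 67.5% of green members (62.7 to 71.9) against 61.9% of all green autosomal regions. For red members it was 51.4% (39.31 to 63.35), against 38.1% of all red autosomal regions. Of green members 55.7% (50.8 to 60.6) had a green neighbour and 28.9% (24.6 to 33.6) a red one. Of red members 18.1% (9.98 to 28.9) had a red neighbour and 44.4% (32.7 to 56.6) a green one. Over all green autosomal regions these shares were 43.6% with a green and 32.7% with a red neighbour. Over all red autosomal regions they were 17.6% with a red and 24.8% with a green neighbour. Among narrower red regions without another mark the share with a green neighbour was 25.5% (24.6 to 26.4). It was 61.7% below 250 bp and 55.0% at 250 to 475 bp, then climbed from 19.3% at 500 to 725 bp to 41.4% at 1.25 to 1.475 kb. In red members it was 46.7% at 1500 to 1725 bp, 35.3% at 1.75 to 1.975 kb and 55.6% of 9 at 2000 to 2475 bp. Broad red regions sharing bases with H3K9ac had a green neighbour in 13 of 16 cases, and those sharing bases with H3K27me3 in 5 of 55.

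**Figure D4:**
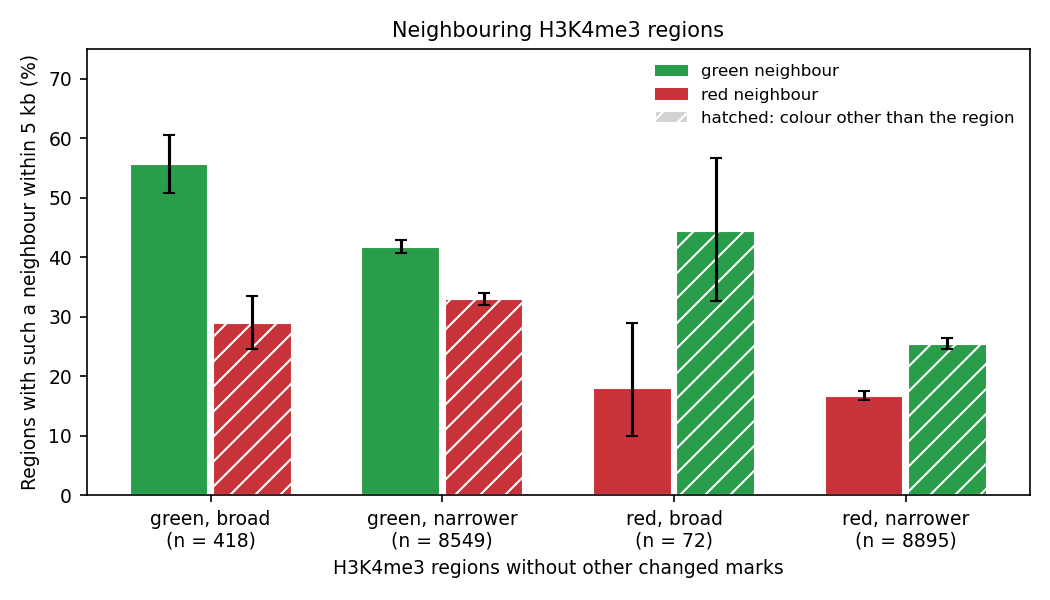
Share of broad and of narrower H3K4me3 regions without other changed marks (y axis, %) that had another H3K4me3 region within 5 kb, by colour of the region (x axis) and of the neighbour (bar colour; hatched where the neighbour has the other colour); black bars are 95% Clopper-Pearson intervals. A green neighbour was present for 44.4% of 72 red broad regions and 25.5% of 8895 red narrower ones, but for 41.4% of the narrower ones at 1.25 to 1.475 kb.

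The neighbours within 5 kb were mostly narrower than 1500 bp, but not narrower than the list as a whole. Over all autosomal regions the median width was 700 bp in green and 625 bp in red. The 418 green members formed 416 pairs with green neighbours, whose median width was 825 bp and median gap 950 bp. In 61 of these pairs the neighbour was itself 1500 bp or wider. They formed 138 pairs with red neighbours of median width 600 bp. The 72 red members formed 46 pairs with green neighbours of median width 700 bp, at a median gap of 937.5 bp, and 14 pairs with red ones. A region of the other colour adjoined 6 red members (8.33%, 3.12 to 17.3) and 7 green members (1.67%, 0.676 to 3.42) with no base between. Over all autosomal regions this was so for 1.94% of red and 2.16% of green ones. For red regions without another mark just below the width limit, at 1.25 to 1.475 kb, it was 8.27%, near the share of red members. Within the red members it was 4.44% at 1500 to 1725 bp, 11.8% at 1.75 to 1.975 kb and 22.2% of 9 at 2000 to 2475 bp. Green regions lay on both sides within 5 kb of 7 red members, or 9.72% (4.00 to 19.01), and red regions on both sides of 6 green members, or 1.44% (0.529 to 3.10). Over all autosomal regions the other colour lay on both sides of 4.52% of red and 1.07% of green ones. The member with the most neighbours, a green region of 2750 bp at chr7:104882226-104884975, had 6 green and 2 red H3K4me3 regions within 5 kb.

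Joined across gaps of up to 1 kb, green members and their green neighbours formed 396 stretches, of which 157 held more than 1 region and 34 spanned more than 5 kb. Red members formed 72 stretches, of which 8 held more than 1 region and 0 spanned more than 5 kb. A same-colour region lay within 1 kb of 42.8% of green members (38.0 to 47.7) and 11.1% of red members (4.92 to 20.7). Over all autosomal regions this was so for 30.2% of green and 7.81% of red ones, so the colours differed in the whole list as well. Spans include the members' own widths, which were larger in green. The longest green stretch ran over 11625 bp at chr6:108779726-108791350 and held 5 green regions covering 82.2% of it. The next 2 spanned 10025 bp each, at chr5:66252151-66262175 and at chr14:30819801-30829825. No red H3K4me3 region lay inside these 3 stretches. The longest red stretch was 3525 bp.

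Most members had no other member near, although 65.1% had another listed H3K4me3 region of any width within 5 kb. Only members were grouped in this way, so there is no other set of regions to compare with. Of the 490, 375 had no other member within 100 kb, and the remaining 115 formed 50 groups, of which 40 were green throughout, 10 were mixed and 0 were red throughout. The high green share of members itself favours groups that are green throughout. The group with the most members, at chr5:66246951-66328100, held 4 green members of 1550, 2200, 4950 and 2200 bp and no H3K27me3 region or Notch1 peak. There were 13 groups of 3, and the 4 described next are the first of them in chromosome order. A group at chr2:101464101-101490375 held green members of 2975, 2600 and 1725 bp, with 1 further green H3K4me3 region and no region of the other lists. On chromosome 3 from 25419276 to 25453150, 3 green members stood in a span with 17 green (the 3 included) and 2 red H3K4me3 regions and 1 H3K27me3 region. Another group, at chr3:120993801-121130625, held 2 green members and 1 red one. On chromosome 8 from 108576576 to 108586250, 3 green members made up 5475 bp of a span of 9675 bp that held 6 green and 0 red H3K4me3 regions.

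Some members had nothing listed near them. No region of the 4 lists lay within 5 kb of 125 green (29.9%, 25.6 to 34.5) and 16 red members (22.2%, 13.3 to 33.6). The H3K9ac list holds no region on 8 autosomes, so for the 222 members there only the other lists could count. The shares over all autosomal H3K4me3 regions were 30.1% of green and 31.7% of red ones, so green members were near this background. Among narrower regions without another mark they were 34.0% of green and 39.3% of red ones. Nothing was listed within 100 kb of 7 green and 3 red members, a distance at which no share over all regions was computed. The widest of these 10 was a green region of 2925 bp at chr13:5861076-5864000, with the next H3K4me3 region 125 kb away. Chromosome 13 is not in the H3K9ac list.

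H3K27me3 regions were seldom near green members, while for red members the comparison turned on which other regions were set beside them. An H3K27me3 region lay within 5 kb of 3.88% of members (2.35 to 5.99). The share was 15.6% of all autosomal H3K4me3 regions, a figure that includes those sharing bases with H3K27me3, which the rule removes. For narrower regions without another mark, chosen by the same condition on bases, it was 8.07% (7.67 to 8.48). Of green members 1.91% (0.830 to 3.74) had one, against 4.74% (4.30 to 5.21) of narrower green regions without another mark and 6.79% of all green autosomal regions. Of red members 15.3% (7.88 to 25.7) had one, against 11.3% (10.6 to 11.9) of narrower red regions without another mark and 23.7% of all red autosomal regions. The red members thus stood above the narrower red regions and below all red regions, and their interval spans both values. The 8 green members near H3K27me3 had a red H3K27me3 region nearby in 7 cases and a green one in 1. The 11 red members had a green one in 7 cases and a red one in 5, with both colours at the region at chr2:152222051-152224125. A green H3K27me3 region was thus near 9.72% of all red members (4.00 to 19.01), against 4.13% of narrower red regions without another mark and 10.6% of all red autosomal regions. A red one was near 6.94% of red members (2.29 to 15.5), against 8.97% of the narrower and 21.1% of all red regions. Of green members 0.239% had a green and 1.67% a red H3K27me3 region near, against 2.09% and 3.65% of narrower green regions and 2.96% and 5.52% of all green ones. All 7 red members with green H3K27me3 nearby had no other H3K4me3 region within 5 kb, and 3 of them held a Notch1 peak. Of all 72 red members, 35 had no other H3K4me3 region within 5 kb and 14 held a peak. Over all red autosomal regions 38.1% had such a neighbour and 17.3% held a peak. With 7 regions, a link between these traits was not tested.

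H3K9ac regions could be placed near members on 11 chromosomes only. There 17.9% of members (13.5 to 23.0) had one within 5 kb without shared bases, against 20.4% of all H3K4me3 regions on these chromosomes, shared bases included, and 11.8% (11.2 to 12.4) of narrower regions without another mark. Of the 235 green members there, 28 had a green H3K9ac region nearby and 20 a red one. Of the 33 red members 2 had a green one and 2 a red one. With either colour counted, 18.7% of green members (13.9 to 24.3) had an H3K9ac region nearby, close to the 17.4% (16.4 to 18.5) of narrower green regions without another mark. For red members it was 12.1% (3.40 to 28.2), against 6.22% (5.58 to 6.90) of narrower red ones. Among all H3K4me3 regions on these chromosomes, shared bases included, a green H3K9ac region was near 15.2% of green and 6.65% of red ones, and a red H3K9ac region near 14.1% of green and 6.74% of red ones.

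Notch1 peaks, which the rule did not use, were in red members and almost absent from green ones. A peak shared at least 1 bp with 14 of 72 red members (19.4%, 11.1 to 30.5) and with 1 of 418 green members (0.239%, 0.00606 to 1.33). The shares over all autosomal H3K4me3 regions were 17.3% of red and 1.03% of green ones, and 9.56% of both together. The red members' share was near this background. Among narrower regions without another mark a peak was held by 14.9% of red (14.2 to 15.7) and 0.842% of green regions (0.660 to 1.06). Broad regions sharing bases with H3K27me3 held a peak in 21 of 55 red cases (38.2%, 25.4 to 52.3) and 0 of 21 green ones. Broad regions sharing bases with H3K9ac held one in 1 of 16 red and 2 of 142 green cases.

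**Figure D5:**
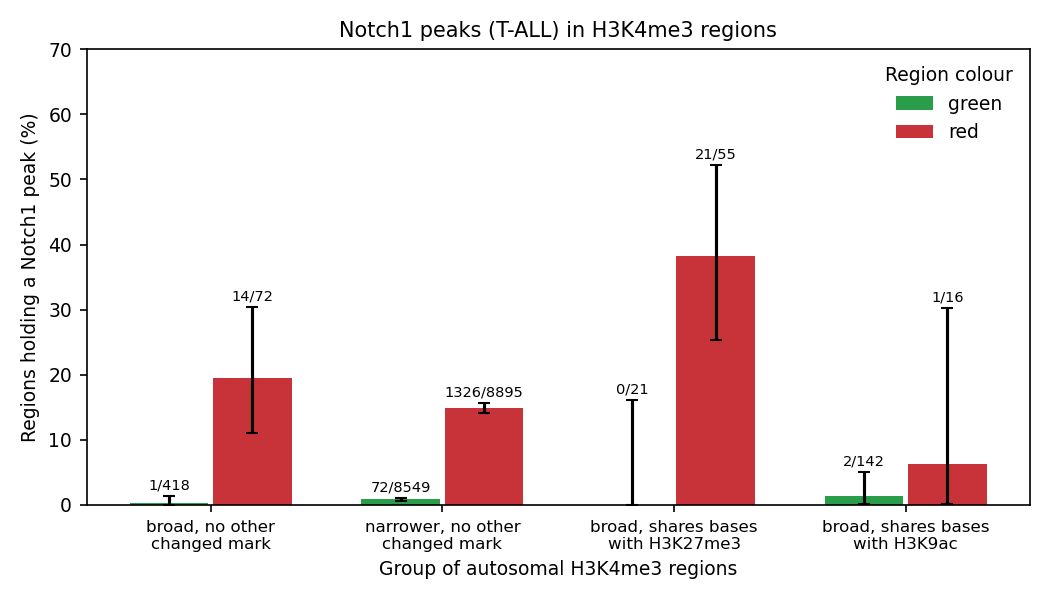
Share of autosomal H3K4me3 regions holding a Notch1 peak of T-ALL (y axis, %) in 4 groups of regions (x axis), by region colour; black bars are 95% Clopper-Pearson intervals and the labels give regions with a peak over all regions. Red broad regions without other changed marks held a peak in 14 of 72 cases and green ones in 1 of 418.

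Measured by bases, Notch1 peaks took up less of red members than of narrower red regions, but this share depends on region width. Peaks covered 9.10% of the bases of red members and 11.99% of those of narrower red regions without another mark. In green members they covered 0.0207% and in narrower green regions 0.219%. Members are wider by rule: the median was 1650 bp in red members and 600 bp in narrower red regions. The median over all Notch1 peaks was 675 bp, so 1 peak fills a smaller part of a broad region. By region the red order was reversed: 19.4% of members (11.1 to 30.5) and 14.9% of narrower regions (14.2 to 15.7) held a peak. These intervals overlap. In green the order stayed the same (0.239% and 0.842%). Coverage at equal width was not tested. At 10 kb, a Notch1 peak was near 37.5% of red members (26.4 to 49.7) and 13.6% of green members (10.5 to 17.3). A peak was this near to 40.0% of narrower red and 17.1% of narrower green regions without another mark, and to 42.4% of all red and 17.4% of all green autosomal regions. The median distance to the nearest peak was 33.3 kb for red and 56.8 kb for green members, against 16.9 kb for all red and 52.6 kb for all green autosomal regions.

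The 14 red members with a Notch1 peak each held 1 peak and were 1500 to 1925 bp wide. All 10 red members of 2000 bp or more held none, a count of 0 that allows a share of up to 30.8% by its interval. In 8 of the 14 the peak lay wholly inside the region, and in 10 the middle of the peak lay in the central part of the region, no farther from its middle than from the nearer edge. The widest, 1925 bp at chr3:58218976-58220900, held a peak of 550 bp from 58219701 to 58220250, whose middle was 37.5 bp from the middle of the region. On chromosome 8 the region of 1.75 kb from 122393101 to 122394850 held a peak of 975 bp, also 37.5 bp off centre. On chromosome 4 a peak of 1675 bp covered all but 75 bp of the region of 1550 bp from 63677726 to 63679275. On chromosome 7 a peak of 1800 bp covered all but 100 bp of the region of 1575 bp from 112901801 to 112903375.

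In 3 of these 14 red members green H3K27me3 lay close by as well. It lay within 5 kb of 9.72% of all 72 red members (4.00 to 19.01) and of 10.6% of all red autosomal regions. The region of 1900 bp at chr3:122431651-122433550 held a peak of 525 bp and lay 75 bp from a green H3K27me3 region (0.075 kb). The region of 1525 bp at chr17:43153101-43154625 held a peak of 1100 bp and lay 0.225 kb from one. The region of 1625 bp at chr5:36235926-36237550 held a peak of 500 bp and lay 0.600 kb from one. The other members of the 10 widest with a peak lay at chr5:35944351-35946025, at chr19:59419101-59420775, at chr6:87761276-87762925, at chr9:108758826-108760450 and at chr1:13362901-13364450. The region on chromosome 1 shared the fewest bases with its peak, 150 bp.

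Red members with a Notch1 peak mostly stood apart from green H3K4me3. Of the 14, 12 had no other H3K4me3 region of either colour within 5 kb. The same held for 35 of all 72 red members, and only 38.1% of all red autosomal regions had such a neighbour. A peak was held by 12 of 40 red members without a green neighbour (30.0%, 16.6 to 46.5) and by 2 of 32 with one (6.25%, 0.766 to 20.8). Narrower red regions showed the same order, with 18.0% (17.0 to 18.9) of those without and 6.0% (5.06 to 7.06) of those with a green neighbour.

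The Notch1 share of red members was not even across chromosomes. On the 11 chromosomes of the H3K9ac list 11 of 33 red members held a peak (33.3%, 18.0 to 51.8), and on the other 8 autosomes 3 of 39 did (7.69%, 1.62 to 20.9). Narrower red regions held a peak in 14.9% of cases on each set of chromosomes. The intervals of the red members overlap, and the part of the H3K9ac condition in this gap was not tested.

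The single green member with a Notch1 peak shared 175 bp of it. This region of 3150 bp lay at chr12:74686451-74689600, and the peak of 500 bp from 74686126 to 74686625 sat across its edge. A red H3K4me3 region of 1100 bp, from 74685326 to 74686425, ended 25 bp before the green one and also lay under the peak. A peak lay within 1 kb of 10 green members (2.39%, 1.15 to 4.36), near the 2.80% of narrower green regions without another mark and the 3.02% of all green autosomal regions.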

How the data were processed

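The authors deposited 4 region lists in BED format, 1 per histone mark comparing T-ALL with DP cells and 1 with Notch1 peaks of T-ALL, per the file headers. Chromatin was cut with micrococcal nuclease for histone marks and sonicated for Notch1, and libraries were read as 36 bp single ends (34 bp after processing), per the labels' protocols. The submitters' processing notes name BWA and the builds NCBIM37 and mm9. Which caller and thresholds were used, and how inputs and replicates entered, is not stated in those sources. The deposited score is 1000 in every row and carries no measurement. Starts and widths are multiples of 25 bp.

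Overlaps (1 bp or more), gaps and shares were computed with Python 3.11.15, pandas 2.3.3, NumPy 2.4.6 and SciPy 1.17.1, and the interval code was checked on simulated lists against base-by-base counting. Intervals are 95% Clopper-Pearson. Adjoining regions (gap 0) share no base. The regions named are the 10 widest members of each colour, the 10 widest of each colour holding a Notch1 peak, and the 5 groups within 100 kb with the most members, where ties among groups of 3 were taken in order of chromosome and start. Other regions are named for an extreme count, length or nearness to other marks, chosen after their values were seen. The members and rules were chosen with earlier results of these data known. Fits per replicate, planned in case the files held a value for each library, could not be run.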

Additional observations from a re-analysis of the deposited data

Results flagged for a closer look

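Outside the autosomes, 4 regions on chromosome X were 1500 bp or wider and shared no base with H3K27me3, out of 216 listed H3K4me3 regions there (1.85%). They are given because their number exceeds the 3 that a count of 0 allows in data the report leaves out. The share is not above the 2.32% that members make up of autosomal H3K4me3 regions. All 4 were green, the widest measured 2125 bp, and 0 held a Notch1 peak. The H3K9ac list holds no region on X, so that mark could not be considered.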

How the results depend on the processing

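The alternatives gave 44 recomputed values of 6 results, and 27 of these stayed within 1.5 times the number of members or within the interval of the share. A width of 1.25 kb gave 1009 regions, 79.7% green, and a width of 2000 bp gave 158, 93.7% green, of whose 10 red ones 0% held a Notch1 peak. The chromosomes of the H3K9ac list alone gave 268 regions, with Notch1 in 33.3% of red and 0% of green ones. Merging same-colour regions within 1 kb gave 1433 regions, with Notch1 in 30.8% of red and 2.02% of green ones and another H3K4me3 region within 5 kb of 35.8%, lower by construction. Notch1 in green members was 0% with peaks at or above their median width and 2.39% with peaks within 1 kb counted. The former change cannot raise the share and the latter cannot lower it. Requiring 1 kb to other marks left H3K27me3 within 5 kb of 1.54%, also lower by construction. At 10 kb, 71.4% had another H3K4me3 region and 8.16% an H3K27me3 region, shares that a wider window cannot lower. Counting same-colour members within 20 kb once, an alternative chosen after seeing the data, moved none of the 6 results beyond these limits. Other causes were not tested. The 2 alternatives on replicates were not run. No paired analysis was possible because each list is 1 joint result of its libraries. Leaving out a replicate could not be tried either. The depth behind the regions is unknown.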

Other observations

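On chromosome Y, 2 of 59 listed H3K4me3 regions were 1500 bp or wider and shared no base with H3K27me3. Both were green, and the widest measured 2025 bp.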
